A study of Mus musculus with 2 samples.

Results

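The cells described here were cycling, Prss34-high basophils of mouse bone marrow, sorted as E-cadherin+cKIT+. They were picked from the counts of that library by a fixed rule. A cell needed at least 2000 unique molecular identifiers (UMIs, one per captured RNA molecule). At least 0.5% of its UMIs had to come from the basophil genes Mcpt8, Fcer1a, Ms4a2 and Cd200r3 together. It needed at least 2 UMIs of the proliferation genes Mki67 and Top2a together, and Prss34 had to take at least 1% of its UMIs. Cells with 3 or more UMIs of Cd79a, C1qa, Prg2 or Gzmb, or with 0.5% or more of Elane and Prtn3 together, were left out. The rule found 1445 of the 6632 E-cadherin+cKIT+ cells, or 21.8% (exact binomial interval 20.8 to 22.8%), out of 10377 cells in both libraries.

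Bone marrow cells positive for E-cadherin were sorted into a cKIT+ and a cKIT- population, and each gave 1 library on the 10x Genomics platform. The labels give the strain FVB for both and name no treatment or age, and the study names wild-type mice in its text and Vav-iCre;mTmG mice in a legend. In the latter, a Cre recombinase active in blood cells switches a fluorescent reporter from red to green. The mice behind a library are pooled and cannot be told apart, so each sort has no replicate and nothing was tested.

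All intervals given are 95% intervals and cover counting error only. Levels are UMIs summed over the cells of a group and scaled to a total of 1e6 (CPM), with exact Poisson intervals. Ratios of CPM carry intervals from the exact binomial. Since 1 UMI marks 1 molecule at its 3′ end, CPM is not divided by gene length. A summed level does not separate more expressing cells from more RNA per cell.

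Basophils are short-lived granulocytes that arise in the bone marrow, bind IgE through the high-affinity receptor FcεRI and store proteases, proteoglycan and histamine in granules. Prss34 encodes the tryptase-like protease mMCP-11 and Mcpt8 the protease mMCP-8, and both are used as mouse basophil genes. Basophil precursors divide before they leave the marrow, whereas mature basophils do not. Mki67 encodes the nuclear proliferation antigen Ki-67 and Top2a the topoisomerase that untangles replicated chromosomes, and their transcripts accumulate toward G2 and mitosis.

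Prss34 lies on the plus strand of chromosome 17 from 25298394 to 25300165 (GRCm38) and Mcpt8 on the minus strand of chromosome 14 from 56082166 to 56085273. The 100 bases before the Prss34 start (RefSeq, GRCm38.p6, plus strand, chr17:25298294-25298393) are shown because the rule turned on this gene. The capitals mark AGATAA, one of the letter strings AGATAA and TGATAA searched on both strands, which GATA factors are known to recognise. It begins 31 bases before the start. One or the other string was found in 6.17% of 32851 promoter windows of this length. The search was chosen after the data had been seen, and a match is a description of letters.
Prss34: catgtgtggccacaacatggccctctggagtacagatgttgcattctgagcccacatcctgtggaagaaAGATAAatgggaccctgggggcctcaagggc

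The Prss34 share per cell ran from 1.01% to 8.90%, with a median of 2.93% and quartiles of 1.93% and 4.11%. Mki67 and Top2a together had a median of 19 UMIs per cell, from 2 to 88, and 210 cells had 2 to 4. The cells held a median of 16326 UMIs (2332 to 51581) and 3834 genes. These values chose the cells, and the limits cut through continuous distributions. Among cycling cells that met the other limits, 33 had 0.9 to 1% of Prss34 and 30 had 1 to 1.1%. The nearest cell outside held 0.994% and the nearest inside 1.01%. Among Prss34-high cells, 428 had no UMI of Mki67 or Top2a, 170 had 1, 97 had 2 and 68 had 3.

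**Figure D1:**
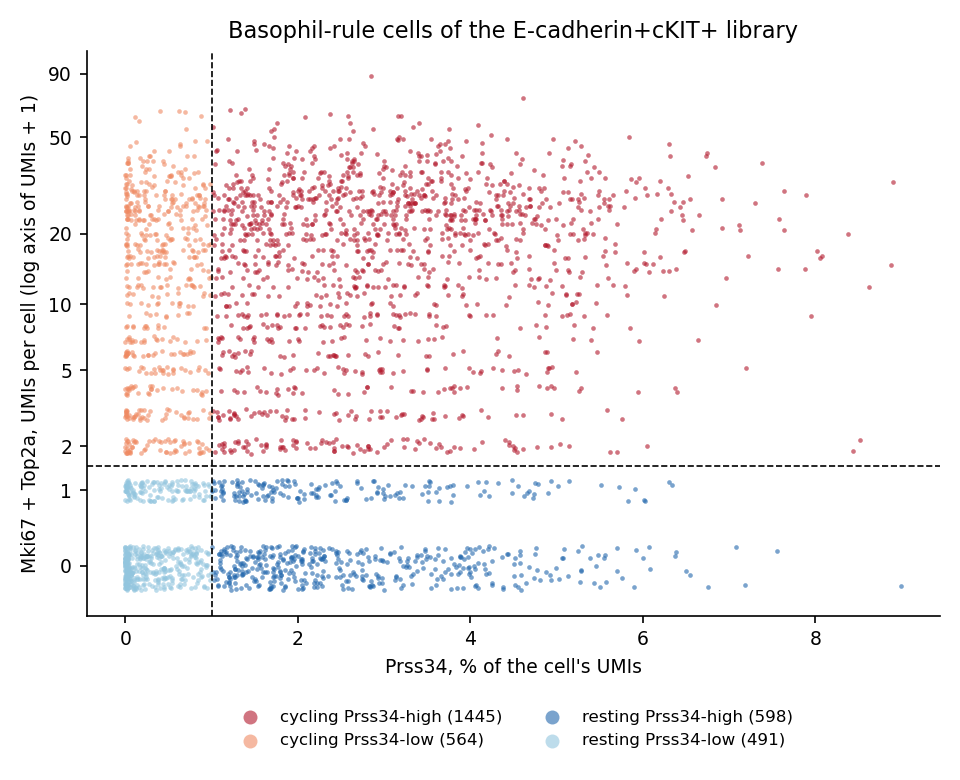
Each point is 1 of the 3098 E-cadherin+cKIT+ cells that met the basophil limits, with the share of Prss34 among its UMIs (percent) against its Mki67 and Top2a UMIs (log axis of UMIs plus 1, points jittered vertically). Dashed lines mark the limits, and the cycling Prss34-high cells fill the upper right field from 1% of Prss34 upward with no gap at either limit.

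The same limits divided the remaining basophil cells of the library into 598 resting Prss34-high, 564 cycling Prss34-low and 491 resting Prss34-low cells, where resting means under 2 UMIs of Mki67 and Top2a. Resting thus means that 0 or 1 UMI of these genes was captured at the depth of the cell. The cycling Prss34-high cells made up 46.6% of these 3098 cells (interval 44.9 to 48.4%). Cycling cells were 70.7% of the Prss34-high cells (68.7 to 72.7%) and 53.5% of the Prss34-low cells (50.4 to 56.5%). Depth moved with this split, with medians of 10888 UMIs in resting Prss34-high and 18199.5 in cycling Prss34-low cells. With each cell thinned to 2000 UMIs before the rule was applied, 39.9% of Prss34-high cells and 24.4% of Prss34-low cells were cycling, and 829 cells met the whole rule. Of these 829, 792 were also members at full depth.

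The same rule in the E-cadherin+cKIT- library found 968 cycling Prss34-high cells and 943 resting ones. Cycling cells were thus 50.7% of the Prss34-high cKIT- cells (48.4 to 52.9%), or 30.4% after thinning. Nearly all cycling basophil cells of that library were Prss34-high, 968 of 975 or 99.3% (98.5 to 99.7%), against 71.9% (69.9 to 73.9%) in the cKIT+ library. In the cKIT- cycling cells the median Prss34 share was 5.59%, and its range of 1.01 to 10.8% overlapped that of the cKIT+ cells. Between the libraries the sort and the library cannot be told apart. The libraries shared 10 cell barcodes, 2 of them among the cycling Prss34-high cKIT+ cells.

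The label was checked against marker lists of 10 basophil genes and of other bone marrow cell types. Of the basophil markers, 9 reached 20 CPM in the cells, and the list summed to 62089 CPM. In cycling Prss34-low cells 8 did so, with a sum of 20710 CPM. In the library's 68 B-lineage cells (3 or more UMIs each of Cd79a and Cd79b) 8 did so too, with a sum of 4677 CPM. The count at 20 CPM thus hardly separates these groups. Besides the rule genes, Gata2 (a transcription factor of basophils, mast cells and progenitors) had 732 CPM, Cpa3 (carboxypeptidase A3, a granule enzyme) 3427 CPM, Hdc (histidine decarboxylase, which makes histamine) 274 CPM and Il3ra (a subunit of the interleukin-3 receptor) 181 CPM. Ccr3, the eotaxin receptor of mature basophils and eosinophils, was near the floor at 1.02 CPM. Mast cell markers were at or near 0: Mcpt4, Tpsb2, Tpsab1 and Mrgprb1 had no UMI, and the list of 7 summed to 10.5 CPM with Gzmb leading at 5.80 CPM. The rule itself used Prss34, Mcpt8, Fcer1a, Ms4a2 and Cd200r3, which gave most of the basophil sum, and it kept Gzmb, Cd79a, C1qa and Prg2 under 3 UMIs per cell. The check of the name therefore rests on Gata2, Cpa3, Hdc, Il3ra and Ccr3 and on the mast cell genes other than Gzmb. Of these basophil markers, Ccr3 did not go with the name, and Gata2 is not particular to basophils.

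Transcripts of other cell types were present at measured levels. The list of 10 neutrophil and granulocyte-monocyte progenitor markers summed to 12690 CPM, led by Ctsg (cathepsin G) at 4662 CPM, and to 12298 CPM in resting Prss34-high and 13664 CPM in cycling Prss34-low cells. The whole list took 1% or more of UMIs in 495 of the 1445 cells (34.3%), with a median of 0.899% per cell. The secondary granule and S100 genes Ltf, Camp, Ngp, S100a8 and S100a9 took 1% or more of UMIs in 19 of the 1445 cells, and erythroid markers did so in 2. Without these 21 cells, which had a median of 22202 UMIs, the 5 neutrophil genes went from 3626 to 151 CPM. The erythroid list of 8 summed to 309 CPM, led by Hbb-bs at 179.8 CPM, of which 94.6% of UMIs lay in 2 cells. B cell, monocyte, macrophage and dendritic cell lists summed to 39.9, 37.4, 8.41 and 21.5 CPM, and no marker among them passed 20 CPM except Cd79b at 35.2 CPM. The T and NK list summed to 1008 CPM, of which Nkg7 gave 897 CPM, and Cd3e was at 0. The megakaryocyte list summed to 227 CPM, with Itga2b at 225 CPM and Ppbp at 0. The eosinophil list summed to 96.6 CPM, led by Ear2 at 52.0 CPM. The share of these transcripts that came from free RNA or from doublets was not tested.

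Kit encodes the stem cell factor receptor cKIT, the protein sorted on, and Cdh1 encodes E-cadherin. Kit had 11.4 CPM in the cycling Prss34-high cKIT+ cells, 16.9 CPM in resting Prss34-high, 26.0 CPM in cycling Prss34-low and 0.978 CPM in cKIT- cycling Prss34-high cells. A Kit UMI was seen in 15.8% of the cells, and in 1.80% (1.18 to 2.63%) once each cell was thinned to 2000 UMIs. The library's 68 B-lineage cells, with a median depth of 3551 UMIs, showed 1.47% (0.0372 to 7.92%) after thinning. They came from the same cKIT+ sort and expressed Ebf1, Vpreb3 and Igll1, genes of B cell precursors, which can carry Kit, so this share is no Kit-negative background. Among the 968 cKIT- cells, 1.14% had a Kit UMI at full depth and 0 after thinning, which allows a thinned share of up to 0.380%. Cdh1 had 108 CPM in the cells, 129 CPM in resting Prss34-high, 68.5 CPM in cycling Prss34-low and 156 CPM in the cKIT- cycling cells. Its ratio to resting cells, 0.835, turned to 1.12 with cells thinned before the rule, and at full depth, which differed between the groups, 79.7% of the cells and 73.6% of resting cells had a Cdh1 UMI. After thinning, 20.8% of the cells (18.7 to 22.9%) had a Cdh1 UMI, against 24.9% of resting Prss34-high cells (21.5 to 28.6%) and 1.47% of the B-lineage cells. The same B-lineage cells held a Prss34 UMI in 33.8% and a Mcpt8 UMI in 30.9% after thinning. Of these 68 cells, 3 held 1% or more of basophil marker UMIs, and the part of free RNA and of doublets in these shares was not tested.

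Cycling and resting Prss34-high cells of the cKIT+ library were separated by Mki67 and Top2a, so higher levels of mitotic genes in cycling cells were fixed in part by the rule. The list of G2 and mitosis genes summed to 10929 CPM in cycling and 2191 CPM in resting cells, a ratio of 4.99 (4.90 to 5.07). Of its 52 genes, 41 had at least 50 CPM in either group, 41 of 41 were higher in cycling cells and 38 at least 2-fold so, with a median log2 ratio of 3.68. Over all 2864 genes at 50 CPM the median was 0.12, and 150 genes (5.24%) differed at least 2-fold, 142 higher (4.96%) and 8 lower (0.279%). These counts describe groups that the rule separated by Mki67 and Top2a, so nothing is read from their size.

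Among the 10 genes with the largest ratios, Esco2 (cohesin acetyltransferase, chromosome 14, 65819038 to 65833994) had 61.6 CPM against 0.460, from 1507 and 3 UMIs, a ratio of 134 (45.7 to 649). Ccna2 (cyclin A2) had 115 against 1.07 CPM, and Plk1 (the mitotic polo-like kinase) 64.7 against 0.614 CPM. Birc5 (survivin, of the chromosomal passenger complex) had 391 against 5.83 CPM, a ratio of 67.1 (48.8 to 94.8). Nusap1 and Kif2c (spindle microtubules), Nuf2 (kinetochore), Aspm (spindle pole) and Pimreg had ratios from 68.2 to 95.5. Hist1h1b, a linker histone gene, had 943 against 15.2 CPM. All 10 stayed higher in the cycling cells under the 15 alternatives computed for single genes. Thinning to 2000 UMIs before the rule gave their lowest ratios, 2.80 for Esco2 to 5.53 for Nuf2, and 2.74 for the whole list.

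Genes of DNA replication differed less and in both directions. The S phase list summed to 3927 CPM in cycling and 2760 CPM in resting cells, a ratio of 1.42 (1.40 to 1.45), which went to 1.04 with cells thinned before the rule. Of its 43 genes, 29 were at 50 CPM, 21 were higher and 8 lower in cycling cells. At least 2-fold, 9 were higher and 1 lower, where 4.96% and 0.279% of all genes were. The rule had separated these groups by Mki67 and Top2a, so the counts are a description. Rrm2, the small subunit of ribonucleotide reductase, had 133 against 8.74 CPM. Tyms (thymidylate synthase) had 271 against 90.6 CPM. Of the 8 genes that were lower, Ung (uracil glycosylase) had 26.0 against 52.3 CPM, Mcm2 (a subunit of the replicative helicase) 76.0 against 94.8 CPM and Cdca7 75.4 against 113 CPM. Resting cells, as defined by 2 mitosis-biased genes, thus held transcripts of the S phase list.

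Among cyclins, CDKs and inhibitors, 5 of the 10 genes at 50 CPM were at least 2-fold higher in cycling cells and none 2-fold lower, where 4.96% and 0.279% of all genes were. The 5 reached 50 CPM in the cycling cells alone, and the rule had separated the groups by Mki67 and Top2a. Their count was thus fixed in part, and nothing is read from it. Ccnb1 (cyclin B1) had 123 against 4.29 CPM. The INK4 inhibitor genes also were higher, Cdkn2c with 50.3 against 7.98 CPM and Cdkn2d with 103 against 21.6 CPM. Ccnd2 (cyclin D2) had 53.1 against 97.1 CPM, a ratio of 0.547 (0.497 to 0.602). Cdk6 (366 against 367 CPM) and Cdkn1b (58.9 against 65.8 CPM) differed little between the groups.

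**Figure D2:**
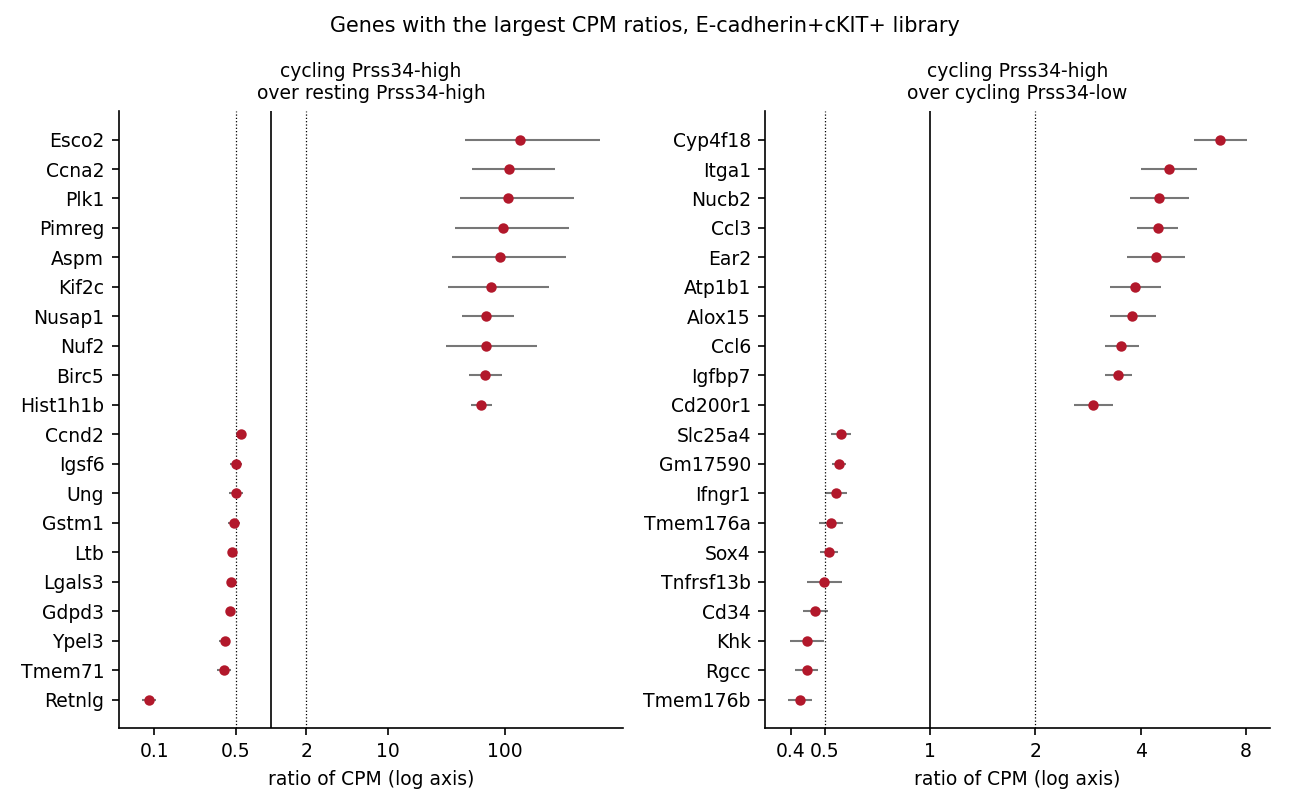
Ratios of CPM (log axis, bars are 95% counting intervals, dotted lines 2-fold) for the 10 genes with the largest ratio in each direction, rule genes left out, in cycling Prss34-high cells, against resting Prss34-high cells on the left and cycling Prss34-low cells on the right. Mitotic genes on the left exceed 60-fold, whereas no gene plotted on the right exceeds 7-fold.

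In the other direction, ratios were small. Besides Ung and Ccnd2, the 10 genes with the lowest ratios included Tmem71 (20.4 against 51.4 CPM), Ypel3 (34.0 against 85.0 CPM), Gdpd3 (80.3 against 181 CPM), Lgals3, which encodes galectin-3 (103 against 228 CPM), Ltb, which encodes lymphotoxin beta (96.9 against 209 CPM), Gstm1 (31.5 against 65.6 CPM) and Igsf6 (34.4 against 68.6 CPM). Retnlg, a neutrophil gene, had 11.4 against 126 CPM, but 97.2% of its UMIs in resting cells lay in 5 cells. Its ratio turned to 2.34 once the cells with the highest Scrublet scores were left out. Without the cells rich in neutrophil or erythroid genes Retnlg had 1.38 and 2.65 CPM.

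The cells differed in their transcripts of S phase and of G2 and mitosis. After thinning to 2000 UMIs, the S phase list held a median of 8 UMIs per cell (quartiles 4 and 12) and the G2 and mitosis list 20 (11 and 30). The G2 and mitosis list held more UMIs in 1044 of the 1445 cells (72.2%) and the S phase list in 358 (24.8%), with 43 equal. In 189 cells (13.1%) the lists lay within 2 UMIs of each other, so this split is a range of a score and not a pair of cell types. In resting Prss34-high cells the medians were 5 and 4 UMIs, in cycling Prss34-low cells 8 and 14, and in cKIT- cycling Prss34-high cells 7 and 33. The G2 and mitosis list was larger in 79.9% of the cKIT- cycling cells and in 64.5% of cycling Prss34-low cells. It was also larger in 35.5% of resting Prss34-high cKIT+ cells and in 55.5% of resting Prss34-high cKIT- cells. The rule took cycling cells by Mki67 and Top2a, whose transcripts accumulate toward G2 and mitosis. The majority in the cycling groups was thus fixed in part.

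**Figure D3:**
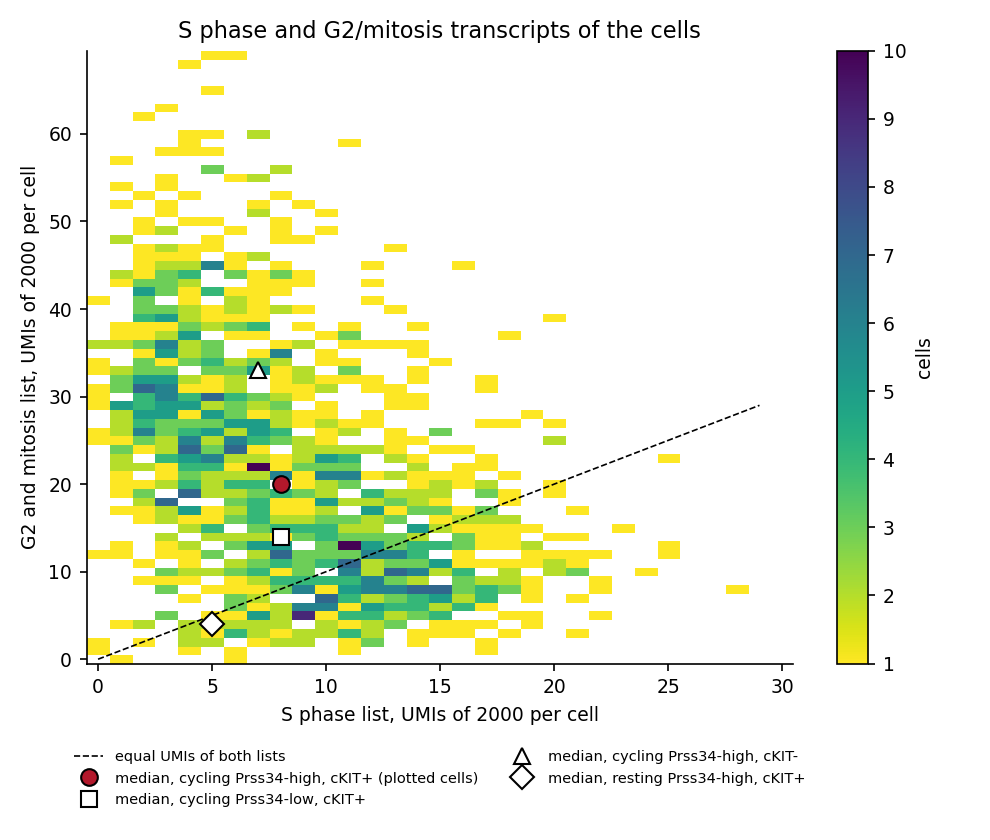
UMIs of the S phase list against UMIs of the G2 and mitosis list in the 1445 cycling Prss34-high cKIT+ cells, each thinned to 2000 UMIs; colour gives the number of cells and symbols the medians of 4 groups. Most cells lie above the line of equal UMIs, and the group medians spread from 4 to 33 UMIs on the vertical axis but from 5 to 8 on the horizontal one.

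Some cell cycle genes outside both lists differed across this split, whereas none of the 17 basophil receptor and adhesion genes at 50 CPM differed 2-fold. In the 1044 cells with more G2 and mitosis UMIs, Ccnb1 had 157 CPM against 15.6 CPM in the 358 cells with more S phase UMIs, and Cdkn3 97.1 against 4.52 CPM. E2f1, a transcription factor of the entry into S phase, had 15.0 against 76.8 CPM. Cdkn2d had 126 against 31.6 CPM and Ccnd2 40.6 against 92.4 CPM. Of the 12 granule genes at 50 CPM, Lyz2 (lysozyme, also a neutrophil gene) differed 2-fold, with 164 against 58.5 CPM. Over all 1445 cells Lyz2 went from 138 to 52.3 CPM without the cells rich in neutrophil or erythroid genes. Cpa3 had 3397 and 3591 CPM, and the rule genes Mcpt8 at 24988 and 24951 CPM and Prss34 at 30895 and 28100 CPM. Of 2938 genes at 50 CPM, 4.87% differed at least 2-fold: 104 (3.54%) were at least 2-fold higher and 39 (1.33%) at least 2-fold lower in the G2 and mitosis-leaning cells. The list genes made this split, so their own ratios are not given. The counts include them: 33 of the higher genes were of the G2 and mitosis list and 18 of the lower ones of the S phase list. This part of the counts was thus fixed by the split. Of the 19 cells rich in neutrophil genes, 18 were among the G2 and mitosis-leaning cells.

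The G2 and mitosis genes are known to be switched on together, in part through the cell cycle homology region, a short promoter element with the letters TTTGAA or TTTAAA. Either string, on either strand, was found in the 100 bases before the start in 13 of 50 windows of the list (26.0%), in 3 of 34 windows of the S phase list (8.82%) and in 9.71% of 32851 windows of all genes. The following 4 windows belonged to the list genes with the highest CPM in the cells among those that held the letters and overlapped no annotated exon (RefSeq, GRCm38.p6, 5′ to 3′ on the strand of the gene). Capitals mark the match as it reads on that strand, so that TTCAAA is TTTGAA on the opposite one. Hmgb2 (a chromatin protein, plus strand, chr8:57511743-57511842) had 2425 CPM in cycling and 694 CPM in resting cells, with the letters 30 bases before the start. Jpt1 (minus strand, chr11:115514394-115514493) had 342 and 119.8 CPM, with the letters at 69 bases. Lbr (the lamin B receptor, minus strand, chr1:181842402-181842501) had 212 and 151 CPM, with the letters at 45 bases. Kif11 (a spindle motor, plus strand, chr19:37376282-37376381) had 134 and 3.22 CPM, with the letters at 19 bases. The 4 genes hold the letters at different distances and differ from 1.40-fold for Lbr to 41.6-fold for Kif11.
Hmgb2: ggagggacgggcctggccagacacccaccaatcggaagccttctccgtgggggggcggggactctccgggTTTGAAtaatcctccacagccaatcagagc
Jpt1: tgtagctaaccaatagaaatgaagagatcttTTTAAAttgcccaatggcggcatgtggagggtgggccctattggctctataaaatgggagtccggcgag
Lbr: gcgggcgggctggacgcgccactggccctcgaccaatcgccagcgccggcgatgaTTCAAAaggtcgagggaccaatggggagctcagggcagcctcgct
Kif11: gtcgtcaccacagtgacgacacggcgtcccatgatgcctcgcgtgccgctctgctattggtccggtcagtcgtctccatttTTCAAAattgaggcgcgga

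Against cycling Prss34-low cells of the same library, the cycling Prss34-high cells had a higher sum of the mature basophil effector list (ratio 1.58) and a lower sum of the stem and early progenitor list (0.611). Of 2900 genes at 50 CPM, 32 (1.1%) differed at least 2-fold, 26 higher (0.897%) and 6 lower (0.207%), with a median log2 ratio of -0.01. Both counts were much larger with cells thinned before the rule, as given under the processing below. The rule separated these groups by Prss34, so these values describe what goes with Prss34 and are no test. Cyp4f18, a cytochrome P450 that inactivates leukotriene B4 in granulocytes, had the largest ratio among genes that the rule did not use, with 90.3 against 13.4 CPM (6.73, interval 5.67 to 8.05). Itga1 (integrin alpha 1) had 59.5 against 12.4 CPM, Nucb2 51.1 against 11.3 CPM and Atp1b1, a subunit of the sodium pump, 59.2 against 15.3 CPM. Alox15 (a lipoxygenase) had 69.2 against 18.2 CPM, Igfbp7 182 against 52.9 CPM and Cd200r1 (an inhibitory receptor) 77.9 against 26.6 CPM. Ear2, an eosinophil-associated ribonuclease gene, had 52.0 against 11.8 CPM.

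Among the lists, mature basophil effectors summed to 1874 CPM against 1184 CPM (ratio 1.58). Of their genes at 50 CPM, 8 of 8 were higher and 3 at least 2-fold so, where 0.897% of all genes were. The 3 were Alox15 and the chemokine genes Ccl3 (104 against 23.2 CPM) and Ccl6 (118 against 33.4 CPM). All 3 reached 50 CPM in the Prss34-high cells alone, so their count was fixed in part by that minimum. Of the 31 basophil receptor and adhesion genes, 17 were at 50 CPM and all 17 were higher. Kit, of the same list but under 50 CPM, was lower (ratio 0.438). Of the 17, Cd200r1 and Il18rap (a subunit of the interleukin-18 receptor, 117 against 49.9 CPM) passed 2-fold, where 0.897% of all genes were 2-fold higher. Cd200r1 and Il18rap also reached 50 CPM in the Prss34-high cells alone. Fcer1g, the signalling chain of FcεRI, had 1313 against 827 CPM. Granule proteases and cargo were nearly level, with sums of 18956 and 17429 CPM. Within that list Cpa3 (3427 against 2281 CPM) and Serpinb1a, a protease inhibitor (431 against 289 CPM), were higher, whereas Srgn, the core protein of the granule proteoglycan (3063 against 3127 CPM), was not.

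The stem and early progenitor list summed to 1317 CPM against 2156 CPM (ratio 0.611, interval 0.601 to 0.621). All 8 of its genes at 50 CPM were lower. Of these, Tmem176b (51.8 against 122 CPM) and Cd34 (52.9 against 112 CPM) passed 2-fold, where 0.207% of all genes were 2-fold lower. Tmem176a, whose start overlaps the start of Tmem176b on the opposite strand of chromosome 6, had 58.0 against 111 CPM. Sox4 (a transcription factor of progenitors) had 96.4 against 187 CPM and Apoe (apolipoprotein E) 694 against 1160 CPM. Besides these, the genes with the lowest ratios were Rgcc (58.7 against 132 CPM), Khk (ketohexokinase, 27.4 against 61.5 CPM), Tnfrsf13b (the receptor TACI, 25.7 against 51.5 CPM), Ifngr1 (an interferon gamma receptor chain, 69.2 against 128 CPM), Gm17590 (179.9 against 327 CPM) and Slc25a4 (the mitochondrial ADP and ATP carrier, 81.4 against 146 CPM). The transcription factor genes Lmo4 (699.9 against 1226 CPM) and Myb (185 against 283 CPM) were lower too, whereas Cebpa (330.3 against 248 CPM) and Cebpb (267 against 172 CPM) were higher.

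The G2 and mitosis list was also higher in the Prss34-high cells, 10929 against 8712 CPM (ratio 1.25, interval 1.25 to 1.26). It was higher in 40 of 41 genes, none of them 2-fold. The S phase list was level at 3927 and 3839 CPM (ratio 1.02, interval 1.01 to 1.03). Of 10 cyclin, CDK and inhibitor genes at 50 CPM, Cdkn2d alone passed 2-fold, at a ratio of 2.11, where 0.897% of all genes were 2-fold higher. Cdkn2d reached 50 CPM in the Prss34-high cells alone.

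Within the 1445 cells the same genes varied with the Prss34 share. The cells were split into equal tertiles at 2.30% and 3.68% of Prss34. Ccl3 had 30.1 CPM in the lowest, 77.1 CPM in the middle and 224 CPM in the highest tertile, against 23.2 CPM in cycling Prss34-low cells and 913 CPM in cKIT- cycling cells. Cd34 had 75.9, 52.0 and 25.4 CPM in the tertiles, against 112 and 13.4 CPM in those outer groups. Kit went from 17.1 over 10.6 to 5.21 CPM. Tmem176b went from 75.6 over 47.8 to 26.9 CPM, and Sox4 from 132 over 98.1 to 50.03 CPM. Cdh1 had 92.7, 113 and 121 CPM, and Cd200r1 52.7, 75.7 and 111 CPM. For Ccl3, Cd34, Kit, Tmem176b, Sox4, Cdh1 and Cd200r1, the level in every tertile lay between the levels of the Prss34-low and the cKIT- cycling cells. These 7 genes were picked after their values were seen, and others did not keep this order. Ear2 had 38.2, 74.8 and 43.3 CPM in the tertiles, against 11.8 and 45.5 CPM in the outer groups. Nucb2 had 30.6, 51.0 and 76.4 CPM, against 11.3 and 44.7 CPM. Since Prss34 ordered the cells, this is a description of cells of 1 library.

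Cell cycle genes varied along the same order. Cdk1 had 215, 265 and 320.3 CPM in the tertiles, Ube2c 447, 606 and 788 CPM, and the whole G2 and mitosis list 9022, 10920 and 13289 CPM. The S phase list had 3946, 3931 and 3899 CPM. Cdkn2d had 65.7, 97.5 and 156 CPM, Cdkn2c 37.6, 44.4 and 72.5 CPM, and Ccnd2 62.8, 54.6 and 39.5 CPM. Across the cells, the Prss34 share had a Spearman correlation of 0.285 with the G2 and mitosis UMIs and of -0.00748 with the S phase UMIs, both from 2000 UMIs per cell, and of 0.567 with the Mcpt8 share. It had one of -0.249 with the total UMIs, and the median depth of the tertiles was 17946.5, 16666 and 14919 UMIs. All points come from 1 library and share its depth.

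Of 2920 genes at 50 CPM, 1.82% differed at least 2-fold: 28 (0.959%) were at least 2-fold higher and 25 (0.856%) at least 2-fold lower in the highest than in the lowest tertile. The lower ones included Ngp (11.2 against 889 CPM), Camp, Ltf, S100a8 and S100a9. Of the 19 cells rich in neutrophil genes, 13 lay in the lowest tertile, 6 in the middle and 0 in the highest. Without them and the 2 cells rich in erythroid genes, 30 genes were higher and 16 lower. Hba-a1 had 155 against 4.34 CPM, and 1 of the 2 cells rich in erythroid genes lay in the highest tertile and none in the lowest.

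**Figure D4:**
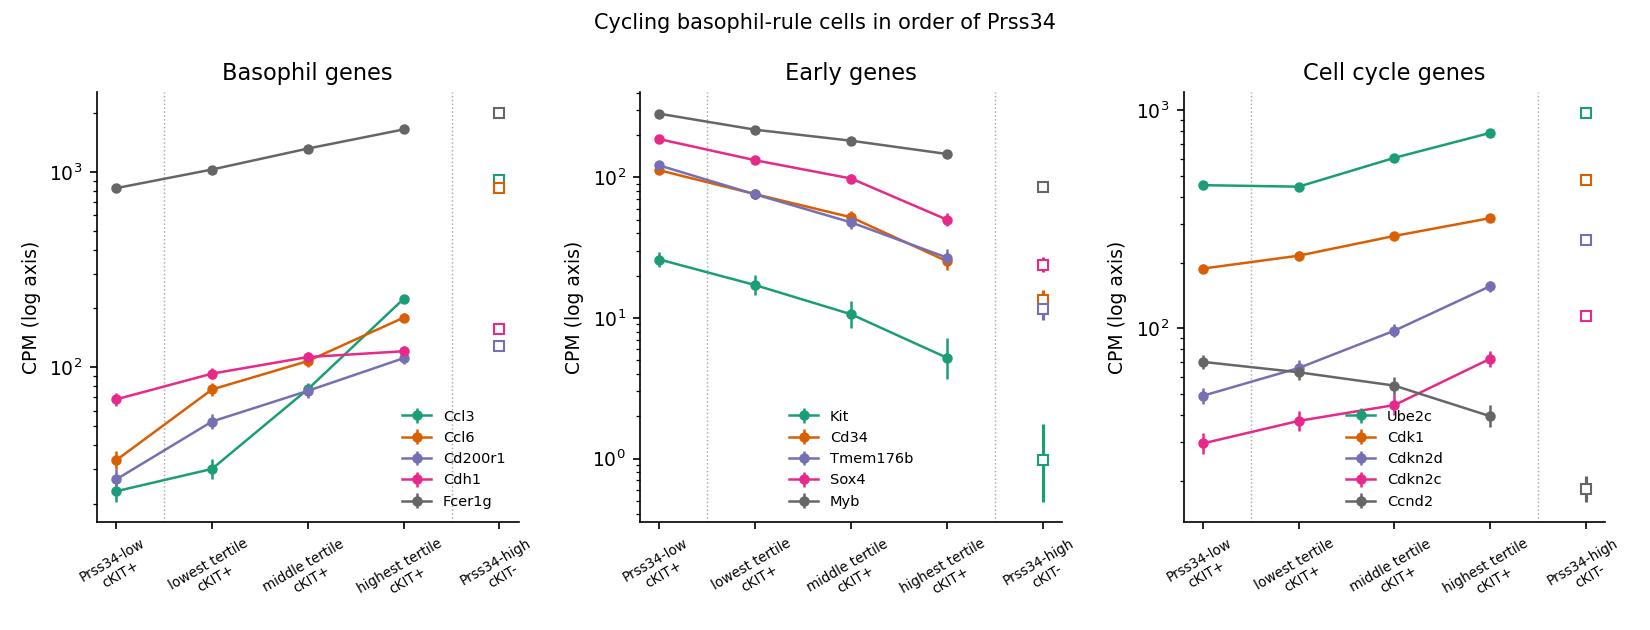
CPM (log axis, bars are 95% Poisson intervals) of 15 genes in cycling cells: Prss34-low cKIT+ cells, the lowest, middle and highest tertile of Prss34 among the Prss34-high cKIT+ cells (these 4 groups filled and joined by lines) and Prss34-high cKIT- cells (open squares, a separate library). Basophil genes such as Ccl3 climb from 30.1 to 224 CPM over the tertiles, and early genes such as Cd34 descend from 75.9 to 25.4 CPM.

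Set beside the cKIT- cycling Prss34-high cells, the cKIT+ cells had lower levels of mature basophil genes and higher levels of early genes. Of 3060 genes at 50 CPM, 139 (4.54%) differed at least 2-fold, 61 higher (1.99%) and 78 lower (2.55%) in the cKIT+ cells, with a median log2 ratio of -0.08. With CPM taken without the 10 most abundant genes, the counts were 55 and 125. The chemokine genes Ccl3, Ccl4, Ccl6 and Ccl9 lie between 83572919 and 83664683 on chromosome 11 (GRCm38). Ccl4 had 12.6 against 141 CPM and was 11.2 times lower in the cKIT+ cells (interval 9.93 to 12.7). Ccl3 had 104 against 913 CPM, Ccl6 118 against 831 CPM and Ccl9 315 against 988 CPM. Ccl3 had a UMI in 15.4% of the cKIT+ cells (13.5 to 17.3%) and 69.1% of the cKIT- cells (66.1 to 72.0%) at 2000 UMIs per cell, against 2.94% of B-lineage cells. Lilr4b, an inhibitory receptor gene, had 21.2 against 169 CPM, and Adora2b, an adenosine receptor gene, 11.8 against 67.6 CPM.

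Of the mature basophil effectors, 10 of 10 genes at 50 CPM were lower in the cKIT+ cells and 6 at least 2-fold so, where 2.55% of all genes were. The list's sum was 0.356 of that in the cKIT- cells (interval 0.351 to 0.360). Il6 (39.7 against 93.5 CPM) and Alox15 (69.2 against 201 CPM) were among the 6. Il6 and Ccl4, also of the 6, reached 50 CPM in the cKIT- cells alone. Of the 31 basophil receptor and adhesion genes, 20 were at 50 CPM. All 20 were lower and 5 of them at least 2-fold so, where 2.55% of all genes were. Cd200r4 (43.4 against 164 CPM), Cd69 (118 against 251 CPM) and Itgb7 (74.5 against 159 CPM) are examples. Some of the 5, such as Cd200r4, reached 50 CPM in the cKIT- cells alone. Kit, of the same list but under 50 CPM, was higher in the cKIT+ cells (ratio 11.7). The 4 rule genes were lower as well, among them Fcer1a with 909 against 1786 CPM and Cd200r3 with 51.4 against 249 CPM. Granule proteases and cargo had sums of 18956 and 18355 CPM, and Cpa3 was level at 3427 and 3330.4 CPM.

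Early genes had the opposite order. All 7 genes of the stem and early progenitor list at 50 CPM were higher in the cKIT+ cells. At least 2-fold so were 4 of them, where 1.99% of all genes were. Sox4 had 96.4 against 24.0 CPM, Cd34 52.9 against 13.4 CPM, Tmem176a 58.0 against 14.6 CPM and Tmem176b 51.8 against 11.6 CPM. These 4 reached 50 CPM in the cKIT+ cells alone, so their count was fixed in part by that minimum. Rgcc had 58.7 against 6.67 CPM and Gm17590 179.9 against 19.3 CPM. Myb had 185 against 85.9 CPM and Ccnd2 53.1 against 18.3 CPM. Hba-a1 (81.0 against 1.51 CPM), Hbb-bs (179.8 against 4.18 CPM) and Ltf (62.8 against 6.84 CPM) also ranked among the 5 largest ratios. Without the cells rich in neutrophil or erythroid genes, Hba-a1 had 4.09 and 1.52 CPM, Hbb-bs 9.68 and 4.196 CPM, and Ltf 2.80 and 0.0893 CPM.

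The cKIT- cycling cells had more mitotic transcripts per UMI. Their G2 and mitosis list summed to 16293 CPM, so the cKIT+ level was 0.671 of it (interval 0.667 to 0.675), with 43 of 46 genes lower in the cKIT+ cells and 1 of them 2-fold, where 2.55% of all genes were 2-fold lower. The S phase sums were 3927 and 4035 CPM. The INK4 inhibitor genes Cdkn2c (50.3 against 114 CPM) and Cdkn2d (103 against 254 CPM) were 2-fold lower in the cKIT+ cells. The cycling against resting contrast gave G2 and mitosis ratios of 4.99 in the cKIT+ and 5.36 in the cKIT- library. In the latter, 45 of 46 list genes were at least 2-fold higher, where 7.22% of 3061 genes were (8.27% in either direction). The rule made both contrasts by Mki67 and Top2a, so these values were fixed in part.

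Genes of the endoplasmic reticulum, which fold and export secreted proteins, were highest in the cycling Prss34-high cKIT+ cells among the 4 groups set beside each other. The list of 28 summed to 16371 CPM, against 13411 CPM in resting Prss34-high, 12400 CPM in cycling Prss34-low and 11717 CPM in cKIT- cycling cells. The ratios were 1.22 (1.21 to 1.23), 1.32 (1.31 to 1.33) and 1.40 (1.39 to 1.41). Of its 28 genes, 27, 28 and 23 were higher, none of them 2-fold. Calr (calreticulin, a calcium-binding chaperone) had 4162 CPM against 2847, 3372 and 2151 CPM. Creld2 had 138 against 75.6, 70.6 and 116 CPM, and Sdf2l1 357 against 235, 205 and 286 CPM. Hspa5 (the chaperone BiP) had 735 against 674, 543 and 396 CPM. In the 3 comparisons the median log2 ratio of all genes was 0.12, -0.01 and -0.08, so the shift of the list of 0.21, 0.36 and 0.27 exceeded it. Thinned cells gave the smallest ratio to resting cells, 1.08.

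Cytosolic ribosomal protein genes summed to 238343 CPM in the cells, against 298320 in resting Prss34-high, 284352 in cycling Prss34-low and 145651 in cKIT- cycling cells. They were lower than in resting cells for 70 of 74 genes (ratio 0.799) and than in Prss34-low cells for 74 of 74 (0.838), and higher than in the cKIT- cells for 73 of 73 (1.64). Over the Prss34 tertiles the list went from 263632 over 239480 to 205888 CPM. Rplp0 had 4462 CPM against 5607, 5359 and 2745 CPM. Since these genes hold so many of the UMIs, their level moves the CPM of every other gene. TMM scaling changed the median log2 ratios to 0.11, 0.06 and -0.04. Glycolysis genes were near level, with sums of 3757, 3428, 3767 and 4110 CPM in the same 4 groups. The 13 genes of the mitochondrial genome summed to 30863, 33971, 34732 and 39053 CPM. Against the cKIT- cells, 9 of the 12 at 50 CPM were lower. The others, mt-Atp8, mt-Nd4l and mt-Nd5, were at least 2-fold higher, where 1.99% of all genes were.

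**Figure D5:**
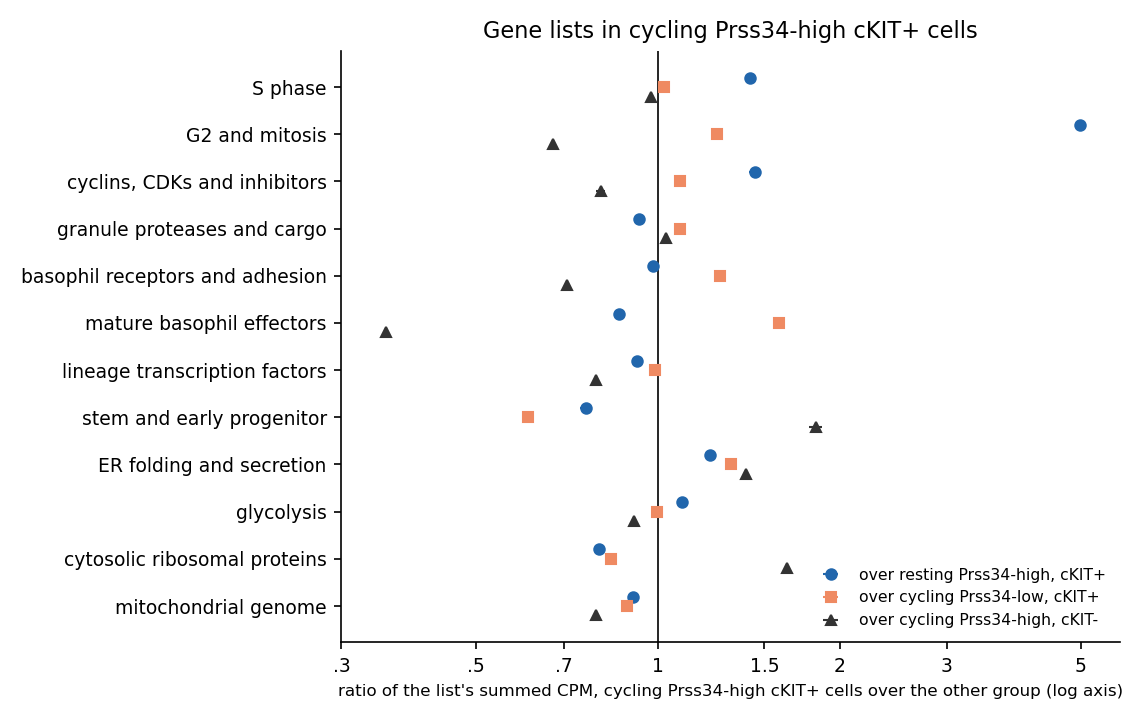
Ratio of the summed CPM of each gene list (log axis, bars are 95% counting intervals, mostly smaller than the symbols) in cycling Prss34-high cKIT+ cells over resting Prss34-high cKIT+ (circles), cycling Prss34-low cKIT+ (squares) and cycling Prss34-high cKIT- cells (triangles). The G2 and mitosis list reaches 4.99 over resting cells, and mature basophil effectors lie at 1.58 over Prss34-low and 0.356 over cKIT- cells.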

How the data were processed

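For each sort the authors deposited 1 matrix of raw UMI counts, made with Cell Ranger 3.0.2 against mm10 per the labels. The kit version differs between the labels and the study's methods. Total depth was 95477153 UMIs over 6632 cells in the cKIT+ sort and 24033994 UMIs over 3745 cells in the cKIT- sort. No cell was removed but by the rule.

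UMIs were summed per group and scaled to CPM in Python 3.11.15 with NumPy 2.4.6, SciPy 1.17.1 and pandas 2.3.3. Genes at 50 CPM or more in 1 group were counted at 2-fold as a description. With 1 library per condition no test was made. Gene coordinates come from GENCODE (31011 of 31053 identifiers matched). The genes named are the rule genes, the 10 (between libraries 5) with the largest ratio each way, and members of the gene lists. The members and lists were chosen with earlier results of these data known. A count of 0 was set to 3 UMIs in ratios. Scrublet (Scanpy 1.11.5) marked 292 cKIT+ and 3 cKIT- cells. Since the second call had not worked, the 352 and 112 highest scores were left out as an alternative, 92 of the 1445 cells among them. edgeR 4.0.16 in R 4.3.3 gave the TMM scaling. The code that counts genes past 2-fold was checked on simulated counts with known folds.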

Additional observations from a re-analysis of the deposited data

How the results depend on the processing

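No paired analysis was possible because each condition has 1 library and no test was made. The number of cells meeting the rule stayed between 1054 and 1649 under the alternatives except for thinning to 2000 UMIs, which gave 829. The share of basophil cells, 46.6%, was 53.2% with Prss34 at 0.5%, 34.0% with Prss34 at 2%, 39.9% with 5 UMIs of Mki67 and Top2a, 53.0% with basophil genes at 1% and 25.9% after thinning.

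Counts past 2-fold depended most on the minimum level. Against resting cells, 142 genes higher and 8 lower became 243 and 19 at 20 CPM, 38 and 2 at 200 CPM, and 737 and 365 with 10 UMIs as the only minimum. Prss34 at 0.5% gave 5 lower. Against Prss34-low cells, 26 and 6 became 46 and 20, 5 and 1, and 372 and 481 under the same minimums, 68 and 33 after thinning, 16 higher with basophil genes at 1%, and 16 lower with Prss34 at 2%. Against cKIT- cells, 61 and 78 became 113 and 158, 26 and 25, and 995 and 542, 33 and 49 with Prss34 at 2%, and 125 lower without the 10 most abundant genes. The alternatives by minimum test more or fewer genes, and the cause of the other moves was not tested.

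Of the genes named by rank, Retnlg turned to 2.15 with Prss34 at 2% and to 2.34 without the highest Scrublet scores, and Ltf between the libraries to 0.370 without the highest scores. The other genes ranked in these 3 comparisons kept their direction. The tertile and phase splits were recomputed without the cells rich in neutrophil or erythroid genes, as counts, and under no other alternative. The cells rich in neutrophil or erythroid genes, the shared barcodes, TMM scaling and the 10 UMI minimum were chosen as alternatives after seeing the data. Counts under 10 UMIs, as for Esco2 or Plk1 in resting cells, and 1 library per sort limit the precision.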

Other observations

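Clustered histone genes were described after their values had been seen. Of 67 such genes in the files, 10 had at least 50 CPM in cycling or resting Prss34-high cKIT+ cells, and 9 of these were at least 2-fold higher in cycling cells, where 4.96% of 2864 genes were. The rule had separated these groups by Mki67 and Top2a, and most of the 10 genes reached 50 CPM in the cycling cells alone. This count was thus fixed in part, and nothing is read from it. The 67 summed to 2703 CPM in cycling and 387 CPM in resting cells, a ratio of 6.99 (6.72 to 7.28), and the cKIT- library gave 3.97 (3.83 to 4.11) for the same contrast. Hist1h2ak had 240.3 against 9.66 CPM, Hist1h2ae 256 against 16.7 CPM and Hist1h1e 235 against 50.5 CPM, whereas Hist1h1c differed by 1.38 times (112 against 81.3 CPM). Histone mRNA of this kind is made in S phase and mostly lacks a poly(A) tail, which the 3′ capture relies on. In these cells the 67 genes were higher where the G2 and mitosis list was the larger one, with 3284 CPM against 816 CPM in S phase-leaning cells, a ratio of 4.02 (3.90 to 4.15). Hist1h1b had 1141 against 285 CPM in that split. The share of polyadenylated histone transcripts was not measured here.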
